A study of Mus musculus with 68 samples.

Results

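Hox genes encode homeodomain transcription factors that sit in 4 clusters, HoxA to HoxD, and carry a paralogue number that follows their order along each cluster. In the embryo they are switched on in that order along the head-to-tail axis, and in the adult gut wall and its epithelium low-numbered genes are known to mark anterior segments and high-numbered genes the hindgut. The homeobox factors Cdx1 and Cdx2 and retinoic acid signalling act upstream of Hox genes, Polycomb complexes keep Hox clusters silent, and TALE proteins (Pbx, Meis, Pknox) bind DNA with Hox proteins.

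The 39 Hox cluster genes of the mouse described here are the rows of the deposited table, which lists 23356 genes, whose symbol is Hox, a cluster letter and a paralogue number. HoxA holds 11 of them (chr6:52155590-52260880, minus strand), HoxB 10 (chr11:96194316-96368256, plus strand), HoxC 9 (chr15:102921103-103036852, plus strand) and HoxD 9 (chr2:74668310-74765142, plus strand), by the GENCODE annotation of GRCm38, the mm10 assembly named by the submitters. Levels are in FPKM, fragments scaled for transcript length and library size, so levels of different genes can be set side by side.

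Poly(A) RNA was sequenced from 23 specimens of C57BL/6 mice labelled 3 months old, as 68 sequencing columns that were averaged per specimen. Cftr codes for an epithelial chloride channel. The Cftr knockout is described as a floxed Cftr gene with Villin-Cre, a recombinase driven by a promoter of intestinal epithelium, so stromal cells keep their Cftr. ApcMin mice carry a truncating Apc mutation and grow intestinal tumours. Apc wildtype mice gave normal duodenum and normal colon (2 Cftr wildtype and 2 Cftr knockout specimens of each), 2 Cftr knockout duodenal tumours and 1 Cftr knockout colon tumour. The ApcMin specimens were 2 tumours of colon and 2 of ileum for each of Cftr wildtype and Cftr knockout, and 2 colon and 2 duodenal tumours whose genotype label reads CFTR knockdown and CFTRhet, called heterozygous here. By the animal numbers in the sample names, the tumours of 1 ApcMin genotype and organ came from 1 mouse, so the spread between them is a spread between tumours and not between mice. The colon is labelled whole tissue and the duodenum epithelium, while the design text describes colon epithelial cells and a duodenum without villi. The study set Cftr genotypes against each other with and without an Apc mutation. Column sums lay between 476233 and 801309 FPKM, and read depth is unknown. Cftr RNA was found in every specimen, at 9.58 to 77.2 FPKM, and a value summed over the gene does not check a deletion of part of it.

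A few specimens stood apart and are named before the results, because their Hox genes stood apart too. The region genes used for this were chosen after their values were seen. The ApcMin heterozygous tumour labelled duodenal tumour 2 had 13740 FPKM of Fabp6, the ileal bile acid binding protein, and 165 FPKM of Slc10a2, the ileal bile acid transporter. Duodenal tumour 1 of the same mouse had 1.02 and 1.13 FPKM of these genes. Pdx1, a factor of the duodenum and pancreas, was at 0.0363 FPKM in tumour 2 and 2.85 FPKM in tumour 1. Tumour 2 thus goes against its organ label, and values without it are given for the counts of Hox genes and for Hoxa13, Hoxb13, Hoxb9 and Hoxb2.

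The ApcMin knockout ileum tumour 2 held genes of the colon. Its Hoxa10, Hoxa11, Hoxa13, Hoxb13 and Hoxd9 to Hoxd13 stood at 7.15% to 15.4% (median 9.79%) of their levels in colon tumour 1 of the same mouse. Car1, a colonic carbonic anhydrase, stood at 11.9% of that tumour, the water channel gene Aqp8 at 10.5%, Saa1 at 9.83% and the colonic hormone gene Insl5 at 9.69%. Ileum tumour 1 of the same mouse had 0.0753% to 5.42% (median 0.192%) for the same 9 Hox genes. Fabp6 was 53.8 FPKM in ileum tumour 2 and 979.9 FPKM in ileum tumour 1. What put colonic genes in this library was not tested.

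The Apc wildtype knockout duodenal tumour 1 was read in both sequencing runs, and the runs disagreed. Hoxb13 was 11.0 FPKM in run 1 and 0.959 in run 2, Hoxd13 was 3.99 and 0, and Hoxa13 was 1.18 and 0.148. Car1 was 18.8 FPKM in its run 1 library and 5.63 FPKM in run 2. In run 1 the 9 Hox genes named above stood at 4.79% to 9.33% (median 5.46%) of their run 1 levels in the Apc wildtype knockout colon tumour, and Car1 at 4.98%. What put them there was not tested. The 27 Hox genes tested differed between its runs with an SD of 0.675 on the log2(FPKM + 1) scale, against 0.118 to 0.19 in the other 10 specimens read in both runs. Values by run are therefore added where high-numbered Hox genes of this tumour are described. In wildtype colon 2, Fabp1, a fatty acid binding protein of enterocytes, was 635 FPKM in run 1 and 3.40 FPKM in run 2, while its Hox genes differed between runs by an SD of 0.146. The Apc wildtype knockout colon tumour, whose run 1 levels were used above, had 86.0 FPKM of Fabp1 in run 1 and 3.21 FPKM in run 2. The Hox genes of that tumour differed between runs by an SD of 0.124.

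Promoter sequences of 4 genes on which the results turn are shown next: Hoxa13, which separated colon from small intestine, and Hoxd13, Hoxd12 and Hoxd10, which were high in the same colon tumours. Each is RefSeq's window of 300 bases around the start site on GRCm38.p6, written in the direction of transcription with every CG dinucleotide in capitals.
Hoxa13 (chr6:52260831-52261130, minus strand): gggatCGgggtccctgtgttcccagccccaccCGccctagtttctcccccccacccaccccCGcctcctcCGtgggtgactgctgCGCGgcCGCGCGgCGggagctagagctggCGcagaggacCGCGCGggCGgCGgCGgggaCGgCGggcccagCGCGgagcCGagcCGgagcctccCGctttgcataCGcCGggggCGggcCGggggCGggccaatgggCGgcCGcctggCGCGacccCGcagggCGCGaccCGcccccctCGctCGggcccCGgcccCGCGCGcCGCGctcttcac
Hoxd13 (chr2:74667975-74668274, plus strand): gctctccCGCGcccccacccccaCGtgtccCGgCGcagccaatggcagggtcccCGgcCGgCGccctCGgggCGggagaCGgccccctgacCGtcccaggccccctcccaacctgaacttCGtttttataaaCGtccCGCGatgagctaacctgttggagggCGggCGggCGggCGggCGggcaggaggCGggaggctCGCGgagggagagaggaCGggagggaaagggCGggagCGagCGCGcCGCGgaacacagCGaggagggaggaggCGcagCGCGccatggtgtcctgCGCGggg
Hoxd12 (chr2:74674763-74675062, plus strand): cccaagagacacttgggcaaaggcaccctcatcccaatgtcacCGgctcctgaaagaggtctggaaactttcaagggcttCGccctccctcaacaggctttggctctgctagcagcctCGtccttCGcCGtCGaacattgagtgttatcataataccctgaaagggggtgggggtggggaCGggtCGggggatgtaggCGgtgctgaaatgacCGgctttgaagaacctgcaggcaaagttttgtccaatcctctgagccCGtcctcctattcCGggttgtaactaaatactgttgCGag
Hoxd10 (chr2:74691641-74691940, plus strand): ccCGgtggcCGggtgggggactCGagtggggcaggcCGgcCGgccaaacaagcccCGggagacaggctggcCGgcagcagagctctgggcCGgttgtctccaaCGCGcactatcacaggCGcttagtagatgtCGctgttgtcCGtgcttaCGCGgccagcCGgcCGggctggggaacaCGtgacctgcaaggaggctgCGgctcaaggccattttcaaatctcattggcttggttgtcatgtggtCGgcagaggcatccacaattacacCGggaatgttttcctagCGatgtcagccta
The windows differ in base composition. The Hoxa13 window holds 45 CG dinucleotides and is 81% G or C, the Hoxd13 window 37 and 74.3%, the Hoxd10 window 22 and 62.7%, and the Hoxd12 window 13 and 55%. The 24 windows found for 22 of the 39 Hox genes held 4 to 45 CG dinucleotides with a median of 14.5, and 34.6% of all 32851 windows reach that median. The letters TTTATNG, a Cdx-type motif searched on both strands, were in 2 of the 24 windows (8.33%), those of Hoxb8 and Hoxd4, and in 10.9% of all windows. None of the 4 windows printed holds these letters.

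Of the 39 genes, 27 passed the filter for testing (1 FPKM or more in at least 2 specimens) and 12 did not. HoxA had 10 of 11 genes tested, HoxB 8 of 10, HoxC 3 of 9 and HoxD 6 of 9. Hoxb1, Hoxb4, Hoxc5, Hoxc9 to Hoxc13, Hoxd1, Hoxd3 and Hoxd4 were among the untested genes, and no untested gene exceeded 1.01 FPKM in any specimen (Hoxb4 in ApcMin wildtype colon tumour 2). Hoxc11 and Hoxc12 were listed at 0 in all 23 specimens, and Hoxc10, Hoxc13, Hoxb1 and Hoxd1 stayed below 0.1 FPKM, so the group 13 paralogue of HoxC was all but undetected. At the other end, 15 genes reached 5 FPKM in some specimen: 7 in HoxA, 4 in HoxB, 4 in HoxD and 0 in HoxC. Exons of 16 of the 39 genes overlap those of another annotated gene, on the opposite strand in 10 cases, and the sources used here do not say whether counting used the strand. Hoxa11, for example, lies opposite Hoxa11os, and Hoxd10 and Hoxd11 share exons with Gm28309, so their values may hold reads of those genes.

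**Figure D1:**
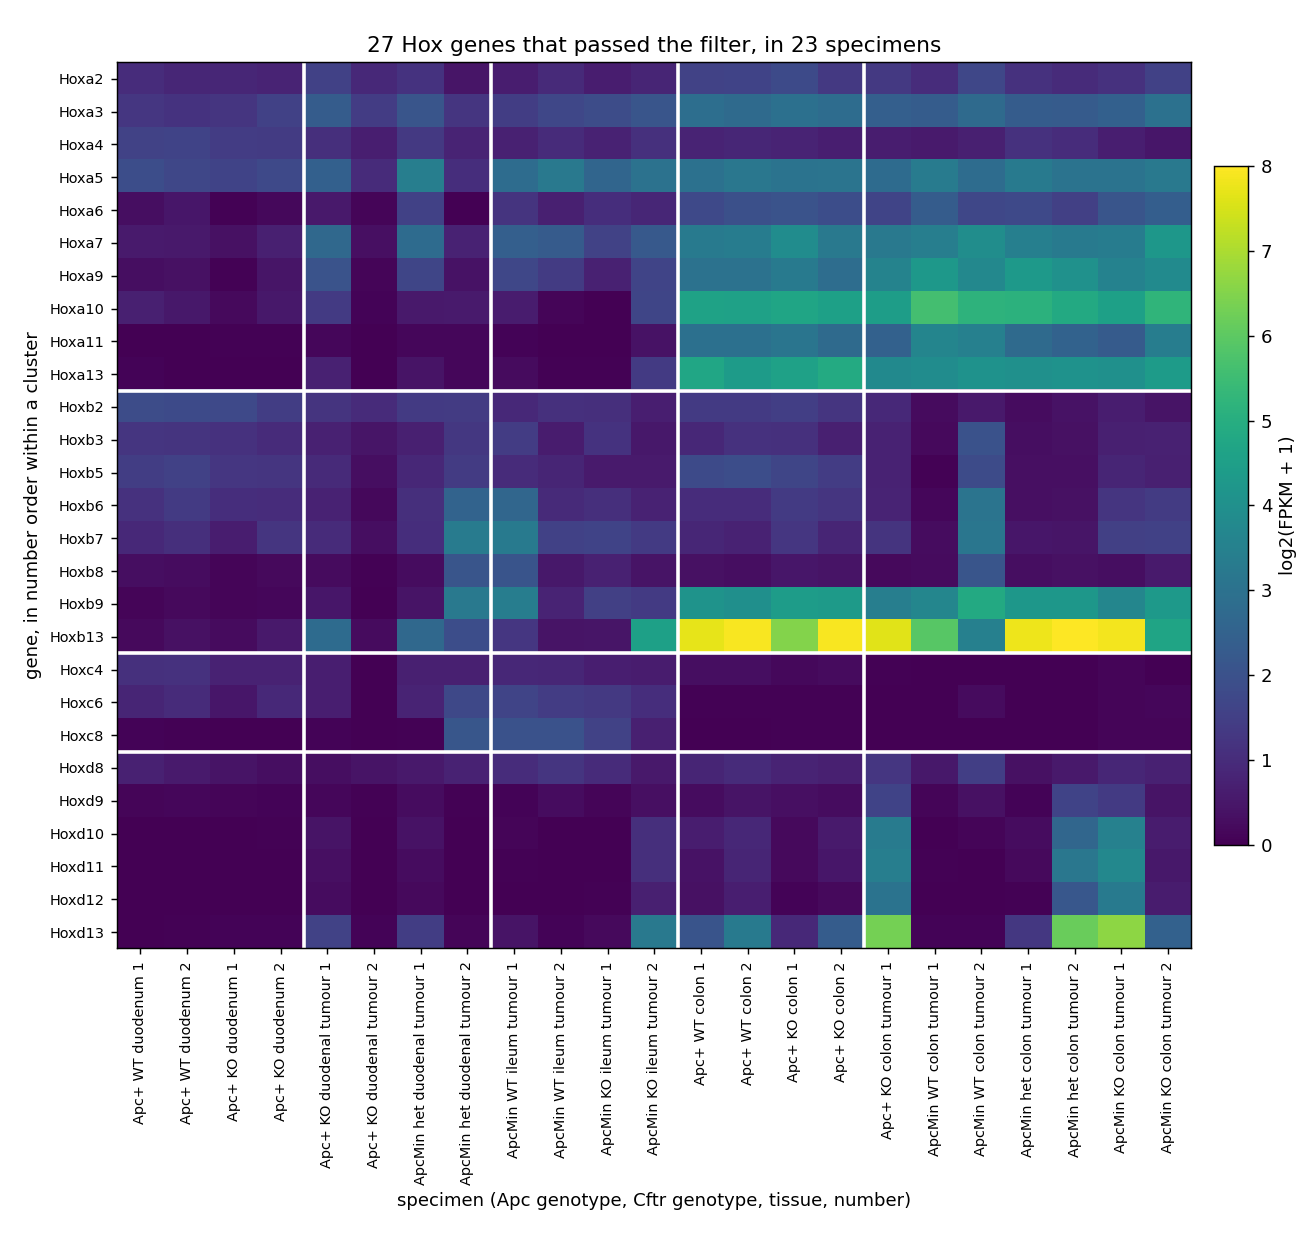
Levels of the 27 tested Hox genes (rows, in number order within HoxA, HoxB, HoxC and HoxD, separated by white lines) in 23 specimens (columns, in the order normal duodenum, duodenal tumours, ileum tumours, normal colon, colon tumours; Apc+ is Apc wildtype, and WT, het and KO are the Cftr genotypes), as log2(FPKM + 1) in colour. Hoxa9 to Hoxa13, Hoxb9 and Hoxb13 are bright in the 11 colon specimens, and the HoxD block from Hoxd10 to Hoxd13 is brightest in 3 of the 7 colon tumours.

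Summed over the 39 genes, Hox RNA was 16.3 to 22.1 FPKM in the 4 normal duodenum specimens and 221 to 363 FPKM in the 4 normal colon specimens. In duodenum HoxA (6.57 to 8.98 FPKM) and HoxB (7.66 to 9.98 FPKM) contributed alike, and genes of groups 9 to 13 held 3.61% to 8.2% of the sum. In colon these groups held 79.7% to 90.4%, and the group 13 genes alone held 51.5% to 75.2%, most of it Hoxb13. The mean paralogue number, weighted by FPKM, was 4.65, 4.77, 4.34 and 4.95 in the duodenum specimens and 11.6, 11.7, 10.5 and 11.7 in the colon specimens. HoxC ran the other way, with 1.45 to 2.93 FPKM in duodenum and 0.214 to 0.338 FPKM in colon. HoxD summed to 0.632 to 1.19 FPKM in duodenum and 2.77 to 12.9 FPKM in colon.

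**Figure D2:**
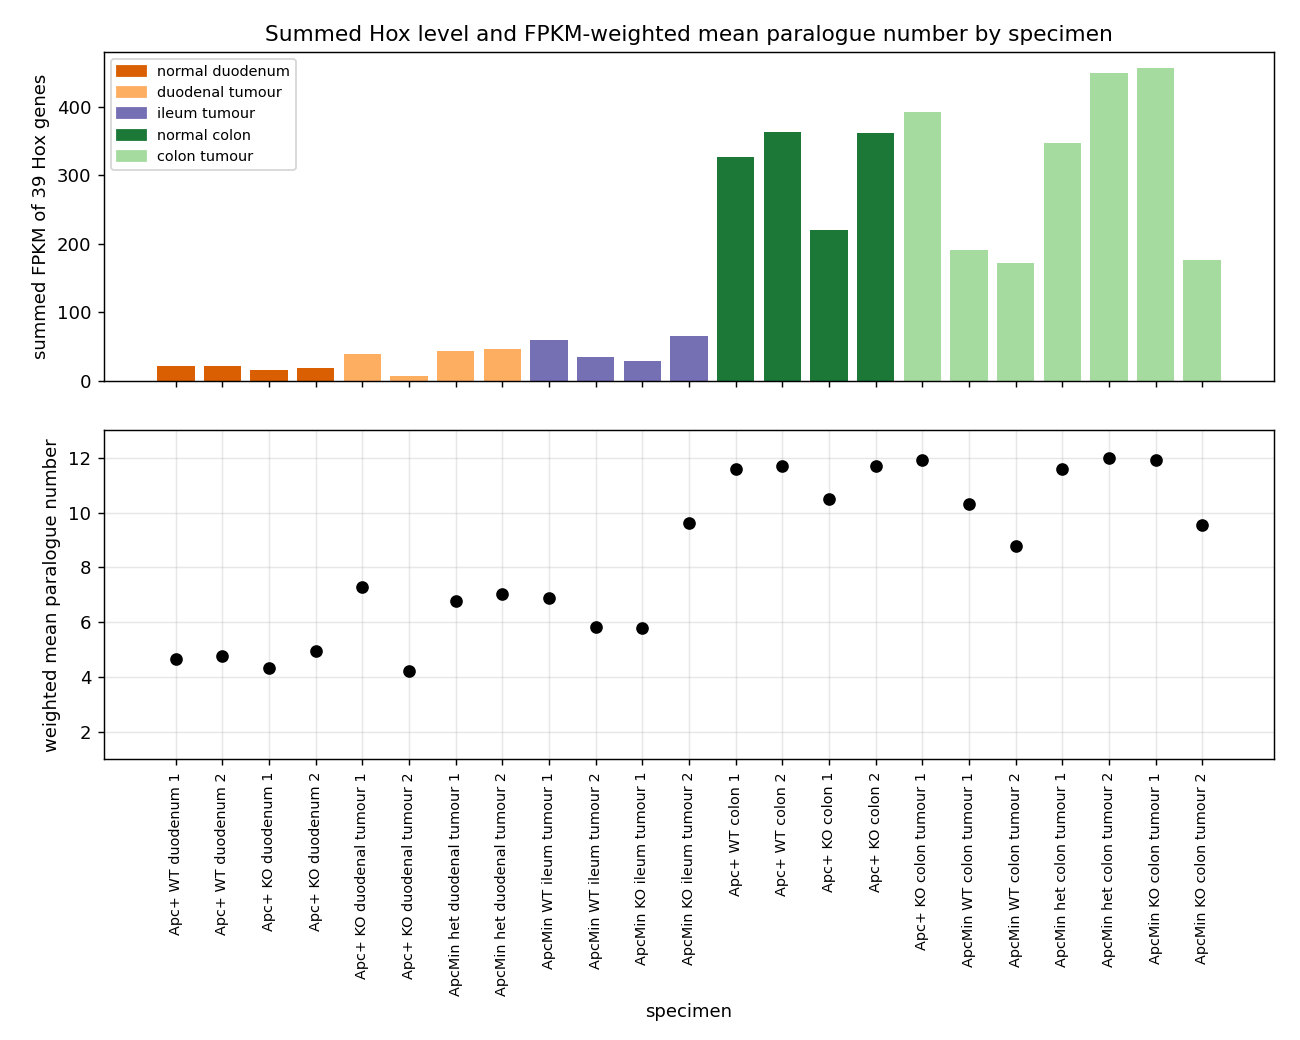
Summed FPKM of the 39 Hox genes (upper panel, bars by tissue) and FPKM-weighted mean paralogue number (lower panel, points) in each of the 23 specimens. The mean paralogue number is 4.34 to 4.95 in normal duodenum and 10.5 to 11.7 in normal colon, and the colon tumours spread from 8.78 to 12.

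Normal colon was compared with normal duodenum over both Cftr genotypes by limma on log2(FPKM + 1), with p-values adjusted by the Benjamini-Hochberg method over all 14098 genes that passed the filter. By the labels every normal colon was whole tissue and every normal duodenum epithelium. Organ and tissue preparation therefore cannot be told apart in this comparison. The 2 wildtype duodenum specimens differed by no more than their lanes and counted as 1 sample, so 4 colon samples stood against 3 of duodenum. At an adjusted p under 0.05, 15 of the 27 Hox genes passed (11 higher and 4 lower in colon), and 55.6% of all genes tested did, so the Hox genes passed no more often than the rest. The median change was 0.47 for the Hox genes and -0.02 over all genes.

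Hoxa13, needed for hindgut and genital development, showed the clearest difference. It was 25.7 and 20.0 FPKM in the wildtype colons and 22.7 and 28.4 FPKM in the knockout colons. In duodenum it was 0.0470 FPKM in 1 specimen and listed at 0 in the other 3. No colon specimen came near a duodenum specimen, and the change was 4.63 ± 0.268 (log2(FPKM + 1), SE; limma, adjusted p = 5.68e-08). Hoxa11 was 6.80, 6.81, 7.61 and 5.78 FPKM in colon and at most 0.0419 FPKM in duodenum (change 2.92 ± 0.207, limma adjusted p = 2.40e-07).

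Hoxa10 was 23.2, 22.9, 24.9 and 22.2 FPKM in colon and 0.621, 0.443, 0.143 and 0.437 FPKM in duodenum (change 4.12 ± 0.374, limma adjusted p = 1.66e-06). Hoxa9 was 7.01, 7.06, 8.76 and 6.21 FPKM in colon and 0.235, 0.275, 0.0414 and 0.378 FPKM in duodenum (change 2.74 ± 0.423). The lower-numbered HoxA genes rose with them. Hoxa7 was 8.84, 9.21, 13.8 and 8.39 FPKM in colon and 0.282 to 0.642 FPKM in duodenum, and Hoxa6 was 2.40 to 3.13 FPKM against 0.0438 to 0.397 FPKM. Hoxa5, a gene also known from gut mesenchyme, was 6.87, 8.08, 7.26 and 7.43 FPKM in colon and 2.69, 2.29, 2.06 and 2.39 FPKM in duodenum. Hoxa3 was 6.40, 5.80, 6.79 and 6.17 FPKM against 1.39, 1.26, 1.35 and 1.89 FPKM, and Hoxa2 1.51 to 2.51 FPKM against 0.737 to 1.01 FPKM. Adjusted p for these 6 genes lay between 1.42e-04 (Hoxa9) and 0.0278 (Hoxa5) in limma, and the groups did not overlap for any of them. Overlap was not counted over all genes, so nothing particular to these genes is read from its absence. The Hoxa5 call was lost in 5 of 18 alternatives: run 1 alone, or without knockout colon 1, knockout colon 2, knockout duodenum 1 or wildtype colon 2. The Hoxa2 call was lost in 2 of 18, with run 1 alone or without knockout colon 1 (limma adjusted p up to 0.0723). Within HoxA the exception was Hoxa4, which was lower in colon at 0.606 to 0.830 FPKM against 1.63 to 2.02 FPKM (change -0.71 ± 0.148, limma adjusted p = 0.00131).

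In HoxB the 2 genes at the high end rose. Hoxb13, a marker of hindgut and distal colon, was 207 and 241 FPKM in the wildtype colons and 89.9 and 239.9 FPKM in the knockout colons, which made it the most abundant Hox gene in all 4. In duodenum it was 0.154 to 0.454 FPKM (change 7.17 ± 1.03, limma adjusted p = 7.91e-05). Hoxb9 was 16.2, 14.8, 20.4 and 19.7 FPKM in colon and 0.0687 to 0.139 FPKM in duodenum (change 4.08 ± 0.651, limma adjusted p = 1.83e-04). The genes just below Hoxb9 in number did not follow it. Hoxb8 was 0.233 to 0.387 FPKM in colon and 0.0790 to 0.236 FPKM in duodenum. Hoxb7 (0.694 to 1.38 FPKM against 0.544 to 1.33 FPKM) and Hoxb6 (1.00 to 1.58 FPKM against 1.02 to 1.56 FPKM) had overlapping groups, and none of the 3 passed the test. Hoxb2 was lower in colon, at 1.36 to 1.77 FPKM against 1.73 to 2.64 FPKM with overlapping groups (change -0.36 ± 0.134, limma adjusted p = 0.035). That call was lost in 6 of 18 alternatives, among them without wildtype colon 1 or 2, knockout colon 2 or knockout duodenum 1, with an adjusted p of up to 0.141.

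In HoxC, Hoxc4 and Hoxc6 were low in both tissues and lower in colon. Hoxc4 was 0.128 to 0.240 FPKM in colon and 0.686 to 1.18 FPKM in duodenum (limma adjusted p = 5.72e-04), and Hoxc6 0.0229 to 0.0289 FPKM against 0.386 to 0.983 FPKM (limma adjusted p = 0.0101). The HoxD genes at the high end were higher in each colon specimen than in any duodenum specimen but varied among colons. Hoxd13 was 3.19, 8.81, 0.893 and 4.03 FPKM in the 4 colons and at most 0.0668 FPKM in duodenum (change 2.10 ± 1.20, limma adjusted p = 0.155). With the normal tissues fitted alone, 23 Hox genes passed, the 8 added ones being Hoxd8 to Hoxd13, Hoxb5 and Hoxb8. The share of all genes passing in that fit is not set beside this count, so nothing particular to Hox genes is read from it. The fit over all groups takes its spread from the tumours as well.

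**Figure D3:**
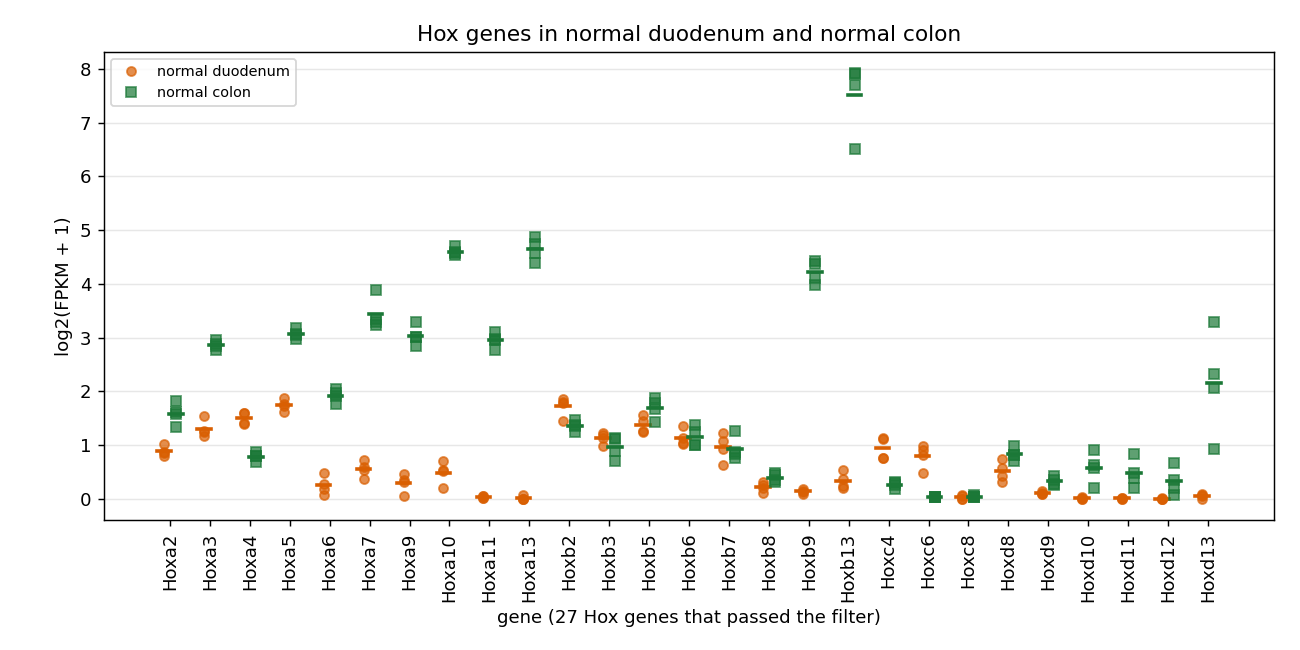
Levels of the 27 tested Hox genes in normal duodenum (circles) and normal colon (squares), 4 specimens each, as log2(FPKM + 1), with the mean of each tissue as a line. Hoxa9, Hoxa10, Hoxa11, Hoxa13, Hoxb9 and Hoxb13 lie far apart between the tissues, and Hoxa4, Hoxc4 and Hoxc6 are lower in colon.

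Markers of other cells moved between the same samples, and fewer cells of a type and less RNA per cell cannot be told apart in bulk tissue. The summed level of 8 smooth muscle markers was 807 to 875 FPKM in normal duodenum and 2379 to 2998 FPKM in normal colon, that of 8 fibroblast markers 216 to 253 and 409.7 to 525 FPKM, and that of 8 markers of enteric neurons and glia 13.1 to 14.5 and 24.8 to 38.5 FPKM. All 24 genes were detected in both tissues. In limma, 3 of 8 muscle, 7 of 8 fibroblast and 8 of 8 neural markers were higher in colon, and 1 fibroblast marker was lower. Endothelial markers (1 higher and 1 lower of 6), leukocyte markers (2 lower of 7) and pan-epithelial markers (3 higher and 2 lower of 8) moved in both directions or few at a time. Their part in the Hox differences was not tested. The organ labels held: all 8 colonic epithelial markers were higher and all 10 enterocyte markers lower in colon.

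Partners and regulators of Hox genes changed as well. Of 8 TALE cofactors tested, 5 were higher in colon and 0 lower. Pbx3 was 7.85 FPKM in colon and 3.33 FPKM in duodenum (limma adjusted p = 3.66e-04) and Pknox2 1.14 and 0.439 FPKM. Of 13 Cdx and other segment factors, 3 were higher and 8 lower in colon. Gata4, known for proximal small intestine, was 0.950 and 69.9 FPKM (3.23 FPKM in wildtype colon 2 and 0.0823 to 0.245 FPKM in the other colons), and Gata6 17.9 and 41.8 FPKM. In the retinoic acid pathway 1 of 12 genes was higher and 6 lower: the receptor gene Rarg rose (8.24 against 1.91 FPKM), and the retinaldehyde dehydrogenase Aldh1a3 (1.94 against 18.8 FPKM) and the receptor gene Rara (7.92 against 11.2 FPKM) fell. Among 18 Polycomb and Trithorax genes 3 were higher and 5 lower, with Rnf2 at 13.2 and 7.72 FPKM, Phc1 at 5.43 and 2.92 FPKM, and Suz12 at 15.6 and 27.6 FPKM. Of 11 genes that neighbour the clusters 5 were higher and 1 lower, led by Gm53 at 31.9 and 0.145 FPKM, Hibadh at 64.7 and 46.3 FPKM and Calcoco1 at 16.5 and 7.24 FPKM. Among all genes 55.6% passed, and nothing particular to these lists is read from their counts.

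Tumours kept the organ difference in the high-numbered HoxA genes. In ApcMin mice colon tumours were set against ileum tumours of the same Cftr genotype, and heterozygous colon tumours against the heterozygous tumours labelled duodenal. By the animal numbers, colon and ileum tumours of a genotype came from the same mouse. The heterozygous colon and duodenal tumours came from different mice, so organ and mouse cannot be told apart there. Hoxa13 was 13.9 and 16.0 FPKM in the wildtype colon tumours, 15.1 and 19.9 FPKM in the knockout ones and 15.3 and 15.9 FPKM in the heterozygous ones. It was 0.169 and 0.0313 FPKM in the wildtype ileum tumours, 0.0294 and 1.58 FPKM in the knockout ones, and 0.339 and 0.106 FPKM in the heterozygous tumours labelled duodenal. The 6 colon tumours lay within a range of 13.9 to 19.9 FPKM, and the highest small-intestinal value was that of the knockout ileum tumour 2 named above. The changes were 3.85 ± 0.339 (wildtype), 3.49 ± 0.339 (knockout) and 3.77 ± 0.339 (heterozygous), with limma adjusted p of 3.01e-05, 1.13e-04 and 7.33e-06. Without the heterozygous tumour labelled duodenal tumour 2 the last change was 3.63 ± 0.426 (limma adjusted p = 1.30e-04).

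Hoxa10 was 47.4 and 34.9 FPKM in the wildtype, 22.2 and 36.5 FPKM in the knockout and 34.1 and 28.2 FPKM in the heterozygous colon tumours. In the small-intestinal tumours of the same genotypes it was 0.538 and 0.0713, 0.0167 and 2.18, and 0.458 and 0.483 FPKM. Hoxa11 was 11.6 and 10.2, 3.88 and 9.47, and 5.86 and 4.70 FPKM in the same colon tumours, and it did not exceed 0.308 FPKM in the 6 small-intestinal ones. Hoxa9 was less exclusive: 18.4 and 12.4, 10.6 and 13.3, and 18.8 and 15.45 FPKM in colon tumours against 2.24 and 1.62, 0.680 and 2.15, and 2.21 and 0.320 FPKM in the small-intestinal ones.

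In all, 8 of 27 Hox genes passed in the wildtype comparison (4 higher and 4 lower in colon tumours), where 11.7% of all genes passed. In the knockout comparison 7 passed (5 higher, 2 lower), against 13.4% of all genes, and in the heterozygous comparison 9 passed (6 higher, 3 lower), against 40.1%. Hoxa9, Hoxa10, Hoxa11 and Hoxa13 were higher in all 3 comparisons and Hoxc4 and Hoxc6 lower in all 3. Some of these calls rested on single tumours. In the knockout comparison Hoxc4 and Hoxc6 were lost when any 1 of the 4 tumours was left out (limma adjusted p up to 0.15 and 0.157). Hoxa9 was lost in 3 of 9 alternatives in the knockout comparison, among them without colon tumour 2 or ileum tumour 1, and in 2 of 9 in the wildtype one, among them without ileum tumour 2 (limma adjusted p up to 0.0942 and 0.11). Hoxc6 was lost in the wildtype comparison without ileum tumour 1 (limma adjusted p = 0.0511) and in the heterozygous one with the compared groups alone (limma adjusted p = 0.0688). Wildtype ileum tumours also had more Hoxc8 (3.00 and 3.06 FPKM, listed at 0 in both colon tumours, limma adjusted p = 0.0129) and more Hoxb2 than wildtype colon tumours (0.896 and 1.15 against 0.170 and 0.446 FPKM, limma adjusted p = 0.0295). Hoxc8 was lost without either ileum tumour (limma adjusted p up to 0.0851), and Hoxb2 in 4 of 9 alternatives, among them without colon tumour 1 or either ileum tumour (limma adjusted p up to 0.2). Hoxa6 was higher in knockout colon tumours (3.32 and 4.22 against 1.05 and 0.799 FPKM, limma adjusted p = 0.0385), a call lost in 6 of 9 alternatives, which include leaving out any 1 of the 4 tumours (limma adjusted p up to 0.241).

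Hoxb13 passed in the heterozygous comparison (change 5.60 ± 1.30, limma adjusted p = 0.00484), with Hoxb9 (limma adjusted p = 0.0343) and Hoxb2, which was lower (limma adjusted p = 5.07e-04). The Hoxb9 call was lost in 6 of 9 alternatives, among them without either colon tumour or without duodenal tumour 1 (limma adjusted p up to 0.326). Without duodenal tumour 2 the changes were 5.19 ± 1.65 for Hoxb13, 3.82 ± 0.766 for Hoxb9 and -1.03 ± 0.215 for Hoxb2 (limma adjusted p = 0.0356, 0.00372 and 0.0048). The changes of Hoxb13 in the wildtype and knockout comparisons were 3.86 ± 1.30 and 3.76 ± 1.30 with limma adjusted p of 0.0762 and 0.0792. Whether the heterozygous change differs from these was not tested. The difference of the organ effect between knockout and wildtype tumours was tested directly: 0 Hox genes passed in limma, as did 0% of all genes, 1 Hox gene had an unadjusted p under 0.05 (Hoxa11, adjusted p = 0.935), and 676 of all genes did.

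Leaving out single tumours changed these counts. Here and below, counts from alternative fits are not set against the share of all genes passing in the same fit. A shift in such a count is therefore not read as particular to Hox genes. Without the heterozygous tumour labelled duodenal tumour 2, whose region genes were ileal, 9 Hox genes passed, and without duodenal tumour 1 it was 15. Without the knockout ileum tumour 2, 5 Hox genes passed in the knockout comparison (5 higher, 0 lower) and Hoxb13 was among them. Without knockout ileum tumour 1 it was 3, without knockout colon tumour 1 it was 4, and without wildtype ileum tumour 2 the wildtype comparison gave 5. Hoxa10, Hoxa11 and Hoxa13 passed in each of these.

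Regulators were also compared between the tumours. Of the TALE cofactors, Meis2 was lower in colon than in ileum tumours of wildtype (0.933 against 7.13 FPKM, limma adjusted p = 0.0122) and knockout mice (0.980 against 5.40 FPKM, limma adjusted p = 0.0318), with 2 and 1 of 8 cofactors lower and 0 higher. Aldh1a2, which makes retinoic acid in mesenchyme, was 0.807 against 8.37 FPKM and 1.01 against 5.75 FPKM, one of 4 and 3 lower genes of 12 in that pathway. Gata6 was lower in the colon tumours of both. Of the 18 Polycomb and Trithorax genes 0 passed in limma in wildtype tumours, with 0 at an unadjusted p under 0.05, and 2 passed in knockout tumours, both lower in colon, Cbx8 among them. In the heterozygous comparison 6 of the 18 passed, 4 higher and 2 lower in colon. Over all genes 11.7%, 13.4% and 40.1% passed in these 3 comparisons. Evx1, the homeobox gene next to Hoxa13, was 7.44 FPKM in wildtype colon tumours and 0.186 FPKM in ileum tumours (limma adjusted p = 2.05e-04), and 4.07 and 0.432 FPKM in knockout ones. Of the stromal markers, in limma 0 of 8 muscle and 0 of 8 fibroblast markers passed in the wildtype comparison (0 and 1 at an unadjusted p under 0.05), and 0 of 8 and 1 of 8 (Col3a1, higher in colon) in the knockout one. In the heterozygous comparison 0 of 8 muscle markers passed, with 0 at an unadjusted p under 0.05, and 3 of 8 fibroblast markers did, 2 higher and 1 lower in colon.

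The colon tumours were then taken one by one, since Hox levels also vary along the colon and the labels do not say where in the colon a tumour grew. Normal colons set the frame: Hoxb13 at 89.9 to 241 FPKM, Hoxd13 at 0.893 to 8.81 FPKM. The Apc wildtype knockout colon tumour had 196 FPKM of Hoxb13 and 79.6 FPKM of Hoxd13. ApcMin wildtype tumours 1 and 2 had 59.0 and 10.3 FPKM of Hoxb13 and 0.0532 and 0.0657 FPKM of Hoxd13. Heterozygous tumours 1 and 2 had 224 and 252 FPKM of Hoxb13 but 1.48 and 70.5 FPKM of Hoxd13. Knockout tumours 1 and 2 had 229 and 24.7 FPKM of Hoxb13 and 99.0 and 4.62 FPKM of Hoxd13. So 2 tumours of 1 mouse could differ many-fold in these genes, and in each of the 3 tumours with over 70 FPKM of Hoxd13 the level was above that of every normal colon.

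Hoxd10, Hoxd11 and Hoxd12, which lie beside Hoxd13, went with it. They were 9.004, 9.67 and 7.30 FPKM in the Apc wildtype knockout tumour, 5.22, 8.10 and 3.55 FPKM in heterozygous tumour 2, and 10.4, 12.4 and 8.74 FPKM in ApcMin knockout tumour 1. In ApcMin knockout tumour 2 they were 0.510, 0.427 and 0.510 FPKM, in heterozygous tumour 1 0.202, 0.148 and 0.0387 FPKM, and in the wildtype tumours at most 0.0682 FPKM with Hoxd12 listed at 0. In the normal colons they ranged from 0.149 to 0.863, 0.147 to 0.775 and 0.0483 to 0.587 FPKM. Hoxd10 amounted to 7.41% to 11.3% of Hoxd13 in the 3 tumours with high Hoxd13 and to 9.8% to 17.1% in the normal colons. Hoxd9 followed at 2.05, 2.05 and 1.59 FPKM in those 3 tumours and 0.0634 to 0.332 FPKM in the other 4. Hoxd8, the next gene, did not: it was 1.42, 0.472 and 0.823 FPKM in those 3 tumours and highest (1.78 FPKM) in ApcMin wildtype tumour 2.

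HoxB showed another pattern within the same tumours. ApcMin wildtype tumour 2, with the least Hoxb13, had the most Hoxb6 (7.36 FPKM), Hoxb7 (7.77 FPKM), Hoxb8 (3.28 FPKM) and Hoxb9 (27.7 FPKM) of the 7 colon tumours. Hoxb7 was 1.30 FPKM in the Apc wildtype knockout tumour, 0.199 FPKM in wildtype tumour 1, 0.399 and 0.379 FPKM in the heterozygous tumours and 1.85 and 1.90 FPKM in the knockout tumours. Hoxb9 in the same order was 9.68, 11.6, 17.7, 17.8, 11.7 and 19.2 FPKM. The ratio of Hoxb13 to Hoxb9 was therefore 0.37 in wildtype tumour 2 and 1.29 in knockout tumour 2, but 5.08 to 20.3 in the other 5 colon tumours and 4.41 to 16.3 in normal colon.

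Hoxa13, in contrast, was alike in all 7 colon tumours (12.9 to 19.9 FPKM), and normal colon had 20.0 to 28.4 FPKM, but it did not pass against normal colon, except in heterozygous tumours when the compared groups were fitted alone. Hoxa10 was 21.02 FPKM in the Apc wildtype knockout tumour and 22.2 to 47.4 FPKM in the ApcMin tumours, and Hoxa9 11.0 FPKM and 10.6 to 18.8 FPKM, above the 6.21 to 8.76 FPKM of normal colon. Hoxa10 and Hoxa9 did not pass against normal colon either, with the same exception. Hoxa7 was 8.48 FPKM in the Apc wildtype tumour, 9.62 and 14.2 FPKM in the wildtype, 10.02 and 8.53 FPKM in the heterozygous and 9.17 and 17.9 FPKM in the knockout ApcMin tumours. Hoxa5 in the same order was 6.01, 8.94, 6.11, 8.83, 7.18, 7.24 and 8.42 FPKM, and Hoxa3 4.39, 4.05, 5.78, 3.98, 3.88, 4.46 and 6.83 FPKM. Neither gene separated the tumours as Hoxb13 and Hoxd13 did. The mean paralogue number was 11.9 in the Apc wildtype tumour, 10.3 and 8.78 in the wildtype, 11.6 and 12 in the heterozygous and 11.9 and 9.54 in the knockout ApcMin tumours.

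**Figure D4:**
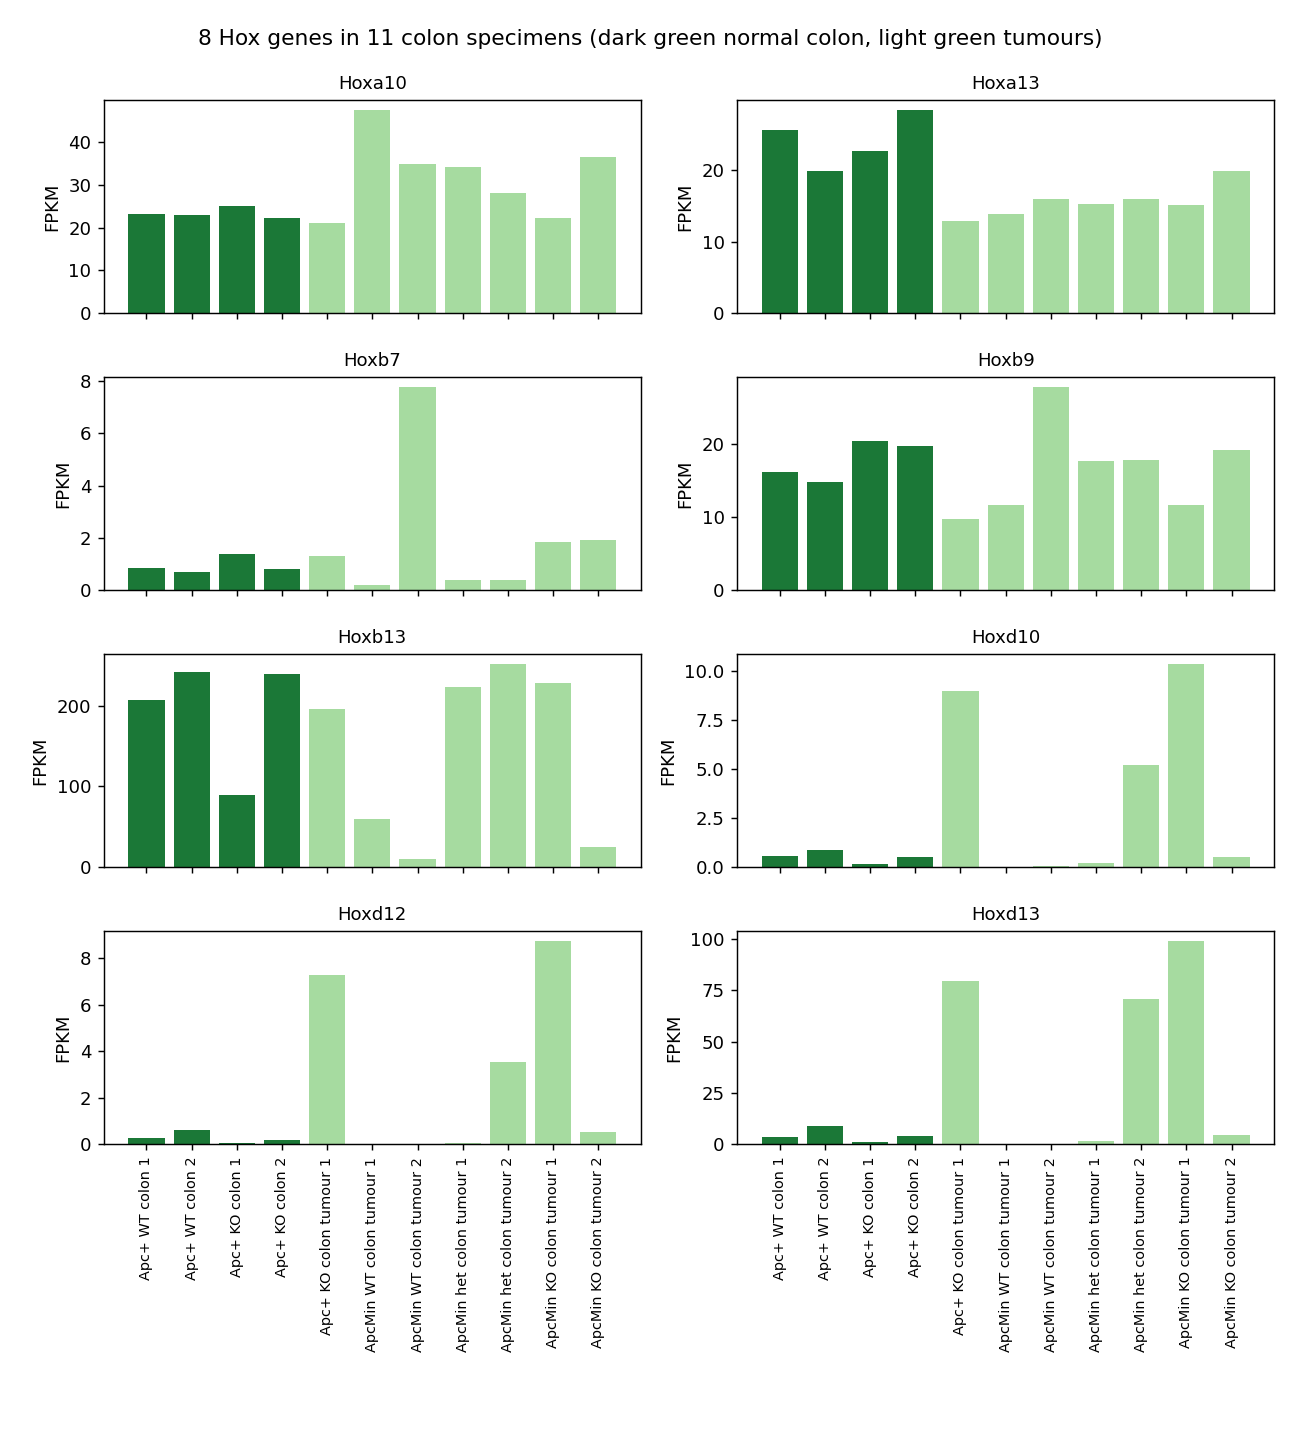
FPKM of 8 Hox genes in the 4 normal colon specimens (dark green bars) and the 7 colon tumours (light green bars), 1 bar per specimen, with the vertical axis of each panel starting at 0. Hoxd10, Hoxd12 and Hoxd13 are high in the same 3 tumours, Hoxb13 is lowest in ApcMin wildtype tumour 2 and knockout tumour 2, and Hoxa13 is 12.9 to 19.9 FPKM in every tumour.

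Other regional genes varied among these tumours too, and their part in the Hox differences was not tested. Car1 was 2119 and 2154 FPKM in ApcMin wildtype tumour 2 and knockout tumour 2, the 2 tumours with the least Hoxb13, and 81.6 to 369 FPKM in the other 5. Among normal colons it was highest (3957 FPKM) in knockout colon 1, which had the least Hoxb13 and Hoxd13. Car1 was chosen here after its values were seen. The summed level of 4 distal colon markers (Scnn1b, Scnn1g, Insl5 and Pyy) was 298 to 469 FPKM in normal colon and 35.2 to 364 FPKM in the colon tumours. By tumour it was 87.2 FPKM in the Apc wildtype knockout tumour and 35.2 and 63.4 FPKM in the ApcMin wildtype ones. It was 225.7 and 363.9 FPKM in the heterozygous and 219.1 and 71.7 FPKM in the ApcMin knockout tumours. The order of the tumours by this sum was not their order by Hoxd13. Markers of anal and squamous epithelium summed to 3.74 to 15.02 FPKM in normal colon and 49.3 to 88.5 FPKM in the colon tumours. The same markers summed to 53.51 to 83.5 FPKM in the ileum tumours and 29.12 to 56.25 FPKM in the duodenal tumours. High sums were thus not particular to tumours of the colon.

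Against normal colon, few Hox genes passed the test in tumours. These fits used only the columns of the sequencing run that both groups shared, run 2 for wildtype and knockout tumours and run 1 for heterozygous ones. One Hox gene of 27 passed in wildtype tumours, where 38% of all genes passed, 1 in knockout tumours, where 10.9% passed, and 5 in heterozygous tumours, where 53.2% passed, each lower in tumours. Hoxb2 was the gene in common. In run 2 it was 1.25 and 1.39 FPKM in wildtype colon and 0.170 and 0.446 FPKM in the wildtype tumours (change -0.83 ± 0.208, limma adjusted p = 0.0107), and 1.60 and 1.20 FPKM in knockout colon against 0.553 and 0.343 FPKM in the knockout tumours (change -0.73 ± 0.208, limma adjusted p = 0.0492). In run 1 it was 1.90, 1.76, 1.95 and 1.53 FPKM in normal colon and 0.212 and 0.322 FPKM in heterozygous tumours (change -1.13 ± 0.108, limma adjusted p = 1.11e-04). Every tumour lay below every normal colon. The single Apc wildtype knockout tumour, which has no replicate, had 1.13 FPKM in run 1 and 0.650 FPKM in run 2.

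Heterozygous tumours also had less Hoxb5 (0.268 and 0.254 FPKM against 1.79 to 2.47 FPKM in run 1, limma adjusted p = 3.88e-04), Hoxb3 (limma adjusted p = 0.0161), Hoxd8 (limma adjusted p = 0.0212) and Hoxa11 (limma adjusted p = 0.0399). The Hoxa11 call was lost in 9 of 12 alternatives (limma adjusted p up to 0.384). Hoxd8 was lost in 4 of 12, among them without wildtype colon 2 or heterozygous tumour 1 (limma adjusted p up to 0.175), and Hoxb3 in 2 of 12, without heterozygous tumour 1 or 2 (limma adjusted p up to 0.0943). Hoxb13 in wildtype tumours (change -3.08 ± 1.28, limma adjusted p = 0.0805) and Hoxd12 in knockout tumours (change 1.82 ± 0.608, limma adjusted p = 0.0767) did not pass, with the 2 tumours of each mouse far apart. Markers of some non-epithelial cells moved along: 7 of 8, 6 of 8 and 7 of 8 markers of enteric neurons and glia were lower in wildtype, knockout and heterozygous tumours. Fibroblast markers did not fall as a set, at 340.2 to 1108 FPKM summed in colon tumours and 409.7 to 524.8 FPKM in normal colon. Endothelial markers summed to 65.01 to 103.5 and 58.12 to 77.24 FPKM. Smooth muscle markers summed to 117 to 1292 FPKM in colon tumours, against 2379 FPKM or more in normal colon. The part of these cells in the fall of Hoxb2 was not tested. Xist, a transcript of the inactive X in females, was 24.04 to 55.6 FPKM in ApcMin tumours and at most 0.461 FPKM in normal tissue, so the sex of the mice and the tumours cannot be told apart. Without wildtype colon 2, or without knockout colon 1 or 2 or knockout tumour 1, the Hoxb2 call and all others were lost (0 Hox genes) in the wildtype and knockout comparisons. Without wildtype tumour 1 the wildtype comparison gave 3, all higher, and without wildtype tumour 2 it gave 2. Without knockout tumour 2 the knockout comparison gave 5, all higher. Hoxb2 was lost without wildtype tumour 1 and without knockout tumour 2 as well. Without wildtype colon 2 or heterozygous tumour 2 the heterozygous comparison gave 3, and without heterozygous tumour 1 it gave 7, 5 of them higher (Hoxd9 to Hoxd13).

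The TALE cofactors Meis1 and Pbx3 were lower in all 3 sets of colon tumours (Meis1 0.719 against 3.74 FPKM in wildtype, limma adjusted p = 0.00182), with 4, 2 and 3 of 8 cofactors lower and 0 higher in wildtype, knockout and heterozygous tumours, where 38%, 10.9% and 53.2% of all genes passed. Retinoic acid genes moved in both directions, 4 higher and 2 lower of 12 in wildtype, 4 and 1 in knockout and 6 and 3 in heterozygous tumours. Stra6, a retinol uptake receptor, was 33.4 against 2.19 FPKM, 18.3 against 0.700 FPKM and 72.7 against 1.29 FPKM. Cdx2, the caudal-type homeobox factor of intestinal identity, was 15.8 against 107 FPKM in heterozygous tumours (limma adjusted p = 2.87e-04). Evx1 rose in wildtype (7.44 against 1.01 FPKM) and heterozygous tumours (11.3 against 1.58 FPKM).

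In the small intestine the middle of HoxB and HoxC separated specimens. Hoxc8 was listed at 0 or up to 0.0545 FPKM in the 4 normal duodenum specimens, and at 3.00 and 3.06 FPKM in wildtype and 1.98 and 0.642 FPKM in knockout ileum tumours. The Apc wildtype knockout duodenal tumours had 0.0464 FPKM and a listed 0. Heterozygous duodenal tumour 1 had 0.0345 FPKM, while tumour 2, with its ileal region genes, had 3.43 FPKM, the highest of all 23 specimens. Hoxc9, which was not tested, was listed at 0 in normal duodenum and was 0.348, 0.115, 0.108 and 0.0218 FPKM in the ileum tumours and 0.257 FPKM in heterozygous tumour 2.

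Hoxb7 was 0.902, 1.09, 0.544 and 1.33 FPKM in normal duodenum, 0.989 and 0.241 FPKM in the Apc wildtype knockout duodenal tumours, 1.06 and 9.05 FPKM in the heterozygous ones, 8.78 and 1.93 FPKM in wildtype and 2.05 and 1.55 FPKM in knockout ileum tumours. Hoxb9 was 0.0840, 0.139, 0.0687 and 0.101 FPKM in normal duodenum, 0.385 FPKM and a listed 0 in the Apc wildtype knockout tumours, 0.329 and 8.42 FPKM in the heterozygous ones, 9.58 and 0.726 FPKM in wildtype and 1.85 and 1.57 FPKM in knockout ileum tumours. Wildtype ileum tumour 1 and heterozygous tumour 2 thus shared high Hoxb6 to Hoxb9 (summed 26.8 and 25.5 FPKM), against 4.01 to 5.68 FPKM in the other 3 ileum tumours and 0.383 to 2.99 FPKM in the other duodenal specimens. HoxA as a sum did not pair these 2 specimens, at 17.8 and 5.42 FPKM. Hoxa5 was 6.04 and 1.05 FPKM, Hoxa7 4.34 and 0.714 FPKM and Hoxa9 2.24 and 0.320 FPKM. Some HoxA genes that were low in both were alike, such as Hoxa10 at 0.538 and 0.483 FPKM.

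**Figure D5:**
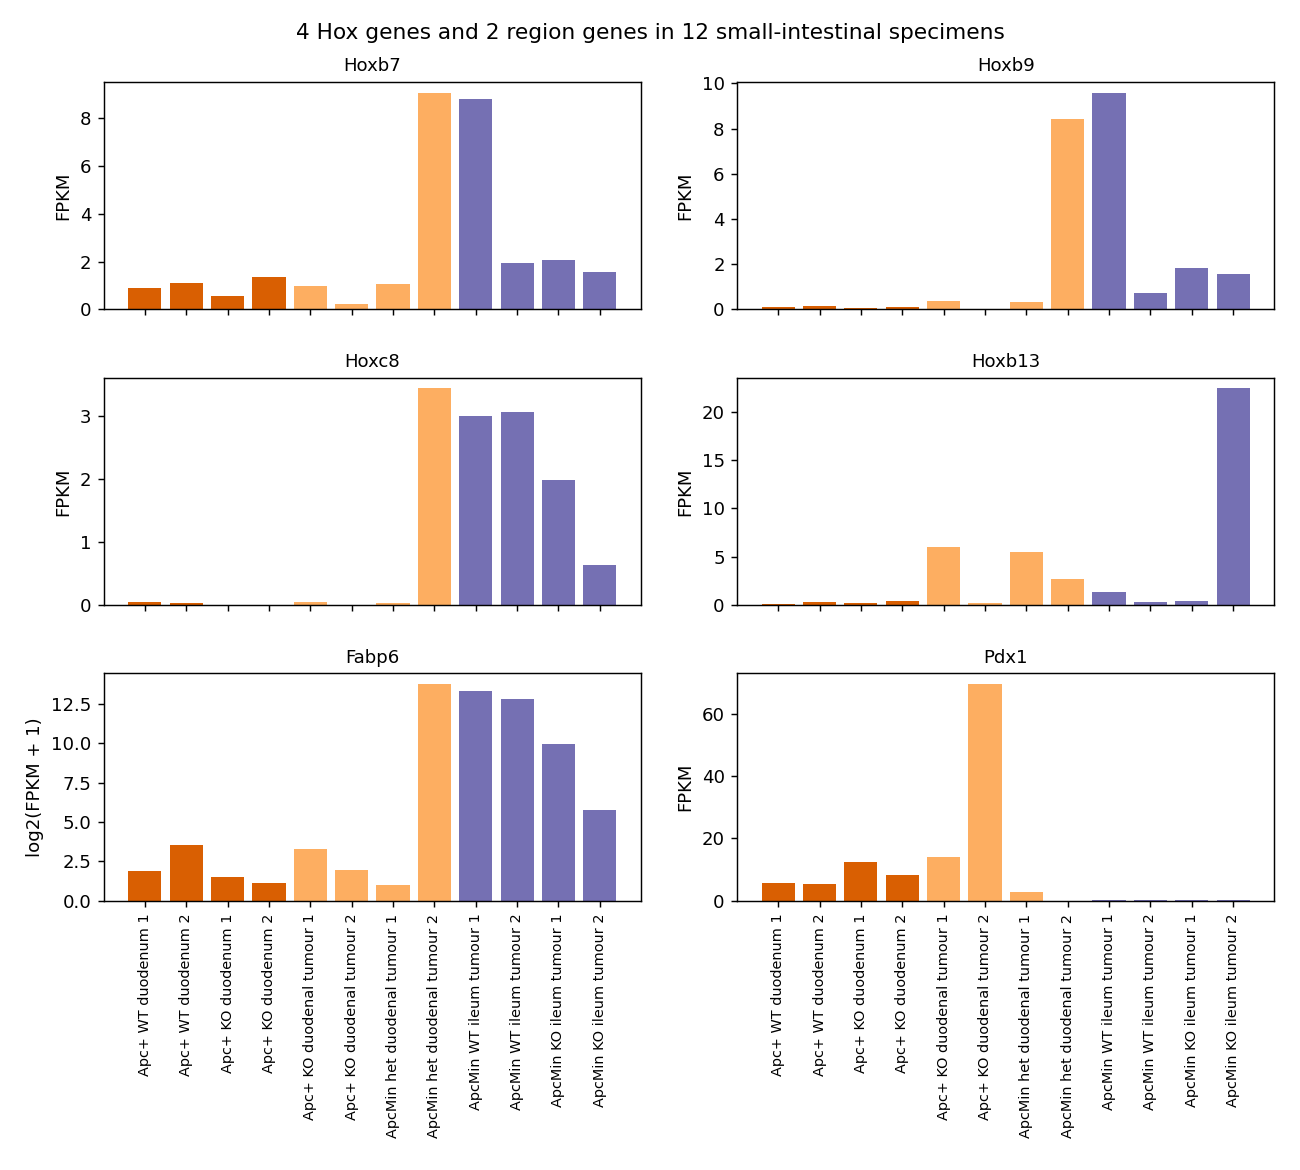
Levels of Hoxb7, Hoxb9, Hoxc8, Hoxb13 and Pdx1 (FPKM) and Fabp6 (log2(FPKM + 1)) in the 12 small-intestinal specimens, 1 bar each (dark orange normal duodenum, light orange duodenal tumours, purple ileum tumours). The heterozygous tumour labelled duodenal tumour 2 has 3.43 FPKM of Hoxc8 and 0.0363 FPKM of Pdx1, and knockout ileum tumour 2 has 22.4 FPKM of Hoxb13.

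Among the other HoxA genes of these tumours, Hoxa5 was 4.45 and 0.970 FPKM in the Apc wildtype knockout duodenal tumours, 9.71 FPKM in heterozygous duodenal tumour 1, 8.43 FPKM in wildtype ileum tumour 2, and 5.12 and 7.16 FPKM in knockout ileum tumours. Hoxa7 in the same order was 5.48, 0.260, 6.02, 3.89, 1.96 and 3.67 FPKM. Hoxa3 was 4.01 and 1.70 FPKM in the Apc wildtype knockout tumours, 3.34 and 1.33 FPKM in the heterozygous ones, and 1.75 to 3.34 FPKM in the ileum tumours. The Apc wildtype knockout duodenal tumour 2 had the lowest Hox sum of all specimens, 7.75 FPKM, and no HoxC gene above 0.0150 FPKM, while its Pdx1 (69.4 FPKM) was the highest. The high-numbered genes were 1.57 (Hoxa10), 3.11 (Hoxa9) and 0.109 FPKM (Hoxa11) in duodenal tumour 1 of that group and 0.0540, 0.0721 and 0 FPKM in tumour 2. In runs 1 and 2 of tumour 1 they were 2.01 and 1.14, 3.49 and 2.73, and 0.219 FPKM and a listed 0. Hoxb9 was 0.655 and 0.115 FPKM in these runs, and Hoxd10, Hoxd11 and Hoxd12 were 0.679, 0.531 and 0.383 FPKM in run 1 and listed at 0 in run 2. Hoxb13 was 5.98 and 0.174 FPKM in these tumours, 5.53 and 2.72 FPKM in the heterozygous ones, 1.39 and 0.345 FPKM in wildtype and 0.383 and 22.4 FPKM in knockout ileum tumours. Hoxd13 in the same order was 2.00, 0.0473, 1.72, 0.0852, 0.346, 0.0611, 0.158 and 8.37 FPKM. Hoxd10, Hoxd11 and Hoxd12 were 1.11, 1.10 and 0.625 FPKM in knockout ileum tumour 2 and at most 0.340, 0.265 and 0.191 FPKM in the other 7. Car1 was 12.0 FPKM in heterozygous duodenal tumour 1 as well, against 0.920 FPKM in tumour 2. The 9 Hox genes set against a colon tumour above stood in heterozygous duodenal tumour 1 at 1.63% to 9.62% (median 2.4%) of heterozygous colon tumour 2. Car1 stood at 12.7%, Aqp8 at 3.47% and Saa1 at 1.82%, and Insl5 was listed at 0. What put these genes in heterozygous duodenal tumour 1 was not tested.

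Against normal duodenum, 0 of 27 Hox genes passed in the Apc wildtype knockout duodenal tumours in limma, where 8.16% of all genes passed, and 3 Hox genes had an unadjusted p under 0.05. These were Hoxb2 (0.969 and 1.32 against 2.44 and 1.73 FPKM), Hoxa4 (0.600 and 1.13 against 1.65 and 1.63 FPKM) and Hoxc4 (limma adjusted p = 0.0837, 0.116 and 0.127). Without the run 1 library of tumour 1 the count was 0 as well, and without tumour 1 altogether it was 1. In heterozygous duodenal tumours 1 Hox gene passed, against 19% of all genes: Hoxb2, at 1.58 and 1.64 FPKM against 2.18 to 3.01 FPKM in run 1 (change -0.46 ± 0.117, limma adjusted p = 0.0285). That call was lost in 5 of 12 alternatives, among them without either tumour (limma adjusted p up to 0.146). Without tumour 2 of that group 1 other Hox gene, Hoxa6, passed and was higher in the tumour, without tumour 1 it was 6, 5 of them higher, and without knockout duodenum 1 it was 0. Hoxb9 (change 1.70 ± 0.671, limma adjusted p = 0.112) and Hoxb8 (change 0.99 ± 0.431, limma adjusted p = 0.143) rested on tumour 2.

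Cftr genotype was compared last. In normal colon 0 of 27 Hox genes passed in limma, as did 0% of all genes (948 of them at an unadjusted p under 0.05, and 0 Hox genes). In normal duodenum it was again 0 Hox genes and 0% of all genes (368 at an unadjusted p under 0.05, and 0 Hox genes). Hoxb13 in knockout colons was 89.9 and 239.9 FPKM against 207 and 241 FPKM in wildtype ones, with overlapping groups (change -0.60 ± 1.30). In ApcMin colon tumours 0 Hox genes passed, against 0.0638% of all genes, and 5 had an unadjusted p under 0.05. The first was Hoxd13, at 99.0 and 4.62 FPKM in knockout and 0.0532 and 0.0657 FPKM in wildtype tumours (change 4.48 ± 1.51, limma adjusted p = 0.288). Hoxa11, Hoxd12, Hoxd10 and Hoxd11 followed, with limma adjusted p from 0.31 to 0.387. Each genotype here is 1 mouse, so mouse, place in the colon and genotype cannot be told apart. Without knockout colon tumour 2 the count was 3. In ApcMin ileum tumours 0 Hox genes passed, against 0.121% of all genes, and 0 had an unadjusted p under 0.05.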

How the data were processed

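The authors deposited a table of FPKM values for 23356 genes in 68 columns, normalized with Cuffnorm after alignment to mm10 with TopHat2 2.0.13, per the submitters' processing notes. The libraries were poly(A)-selected, per the labels' protocols. Read counts are not in the values, so depth is unknown and no counting error is given, and 27 gene names are written as dates. Columns (lanes and runs of 1 specimen) were averaged to 23 specimens in 12 groups. Comparisons of ApcMin tumours with normal tissue used only the run that the tumours had.

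In R 4.3.3, limma 3.58.1 was fitted to log2(FPKM + 1) with a trended variance. All 12 groups were in 1 fit, except where ApcMin tumours were compared with normal tissue. Those fits held only the groups read in the run used. The 14098 genes tested had 2 or more specimens reaching 1 FPKM, with Benjamini-Hochberg adjustment over all of them. Changes on this scale are smaller than the true fold for low genes. The code was tested on simulated data. The 2 wildtype duodenum specimens differed 0.987 (run 1) and 1.05 (run 2) times as much as their lanes, against 1.96 to 5.48 in other groups, and counted as 1 sample. Normal colon and duodenum come from the same mice by the sample names. Their deviations correlated at 0.0332 (knockout) and 0.0103 (wildtype) across genes. The p-values rest on a spread per gene that is shared by all groups in a fit. It mixes the spread between mice with the spread between ApcMin tumours of the same mouse.

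The 39 members and the 15 other gene lists were chosen with earlier results of these data known. Named genes are those past the adjusted p, at most 10 in each direction, and where fewer than 3 passed, up to 3 with an unadjusted p under 0.05. Every specimen's value was required for group 13 genes and genes with a group mean of 5 FPKM. The alternatives tried were quantile normalisation, a replicate block, a fit of the compared groups alone, a pseudocount of 0.1, all genes unfiltered, single runs and single specimens or libraries left out. Some genes are not reported here. Promoter sequences are from RefSeq (GRCm38.p6). Python 3.11.15, pandas 2.3.3 and numpy 2.4.6 made the summaries.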

Additional observations from a re-analysis of the deposited data

How the results depend on the processing

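Of 154 alternatives for the 14 counts of Hox genes that passed, 121 stayed within 1.5 times the reported count and 33 did not. With the compared groups alone, 23 passed between normal colon and duodenum, 0 in wildtype and 0 in knockout colon tumours against colon, 11 in heterozygous colon tumours against colon and 0 in heterozygous duodenal tumours against duodenum. A pseudocount of 0.1 gave 2 in wildtype colon tumours, 0 in knockout colon tumours and 0 in heterozygous duodenal tumours against normal tissue, and no filter gave 0 in knockout colon tumours and 2 in heterozygous duodenal tumours. With the replicate block, 2 passed in wildtype and 3 in knockout colon tumours against normal colon. Against normal duodenum it was 1 in knockout and 4 in heterozygous duodenal tumours. Between normal colon and duodenum 15 passed, and the block there is the mouse by the sample names. The block fits entered the 2 wildtype duodenum specimens separately. Tumours share only a replicate number, and the block moved no other count by over 1.5 times. Run 1 alone gave 1 in knockout duodenal tumours. Without the run 1 library of wildtype colon 2, 3 passed in heterozygous colon tumours against colon, and without that library and with normal tissue alone, an alternative chosen after seeing the data, 22 passed between normal colon and duodenum.

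With each specimen left out in turn, 13 to 15 passed between normal colon and duodenum, 5 to 10 between wildtype colon and ileum tumours, 3 to 7 between knockout ones and 8 to 15 between heterozygous colon and duodenal tumours. Against normal tissue it was 0 to 3 in wildtype, 0 to 5 in knockout and 3 to 7 in heterozygous colon tumours, 0 to 1 in knockout and 0 to 6 in heterozygous duodenal tumours. Between knockout and wildtype colon tumours it was 0 to 3. The cause of these shifts was not tested, and no share of all genes is set beside these counts. For 67 single-gene results and 775 alternatives, 689 kept their direction and side of the threshold, 71 lost the call, 15 gained it and 0 reversed. Hoxa10, Hoxa11 and Hoxa13 passed in every alternative run for the 4 comparisons of colon with small intestine. The weighted mean paralogue number moved in 26 of 68 alternatives by the SD between the specimens of its group or more. For the single Apc wildtype colon tumour, which has no such SD, a fixed limit was used. These alternatives were log2(FPKM + 1) weights, the most abundant Hox gene left out, and single runs. Read depth is unknown, so the counting error of low genes is not given.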
